A study of Mus musculus with 14 samples.

Results

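The genes described here are 37 genes of the cell cycle and DNA replication, chosen by name from textbook lists. The choice of names used no measured value, though earlier results of these data were known when it was made. They comprise 5 genes of the G1/S transition, 11 of DNA replication and 21 of the G2 phase and mitosis (G2/M), and they were read from 37 of the 17498 named loci among the 59796 loci of the gene table. Each member was matched to exactly 1 locus, and all 37 passed the filter of a mean of at least 10 normalized fragments in every comparison.

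RNA-seq was performed on hippocampi of mouse embryos, labelled E16 to E18, from a pair of Down syndrome models. The 189N3 embryos carry a bacterial artificial chromosome with the entire mouse Dyrk1a locus, and so have an extra copy of this kinase gene under its own promoter. The Dp(16)1Yey/+ embryos carry, in the heterozygous state, a duplication of the part of mouse chromosome 16 that is syntenic to human chromosome 21, Dyrk1a included. There were 3 libraries of 189N3 and 3 of their wild-type littermates, and 4 libraries of Dp(16)1Yey/+ and 4 of their wild-type littermates. Every group was of embryonic hippocampus, and the littermates carried neither the transgene nor the duplication. The labels tie no library to a litter or day of collection, and p-values measure the spread between these libraries. Because whole tissue was sequenced, fewer cells of a type and less RNA per cell cannot be told apart.

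Cells that leave G1 express D-type and E-type cyclins, which free the E2F transcription factors, and E2F then switches on the genes that license and copy DNA. Genes needed for mitosis are switched on later, largely through promoter elements called CHR (cell cycle genes homology region) and CCAAT boxes, bound by the MuvB complexes and the factor NF-Y. In the embryonic hippocampus these transcripts come mainly from radial glia and intermediate progenitors, while the neurons they produce have left the cycle. DYRK1A phosphorylates cyclin D and the MuvB subunit LIN52 and is known to favour cell cycle exit.

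The promoter windows of 5 members are shown as examples that hold E2F or CHR words, and no difference between phases was tested. Other members hold such words too, among them Mcm2, a replication member with a CHR word and no E2F word. Each window holds the 250 bases before the RefSeq start (GRCm38.p6), is printed 5′ to 3′ on the strand of the gene, and carries every E2F and CHR word in capitals. Mcm5 (chr8:75109259-75109508, plus strand) and Mcm7 (chr5:138171884-138172133, minus strand) encode subunits of the MCM2-7 replicative helicase, and their capitals mark E2F words, which in Mcm5 overlap on opposite strands.
Mcm5: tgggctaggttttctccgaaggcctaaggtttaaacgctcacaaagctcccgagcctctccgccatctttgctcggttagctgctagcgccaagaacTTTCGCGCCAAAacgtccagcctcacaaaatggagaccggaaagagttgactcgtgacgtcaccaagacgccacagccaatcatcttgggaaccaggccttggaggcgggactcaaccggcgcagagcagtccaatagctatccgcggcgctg
Mcm7: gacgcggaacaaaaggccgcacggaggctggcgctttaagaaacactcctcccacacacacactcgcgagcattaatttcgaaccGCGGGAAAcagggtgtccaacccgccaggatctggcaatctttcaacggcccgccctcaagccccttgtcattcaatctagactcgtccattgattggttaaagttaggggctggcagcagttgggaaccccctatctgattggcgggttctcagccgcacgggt
Cdc20 (chr4:118437344-118437593, minus strand) encodes an activator of the anaphase-promoting complex, Top2a (chr11:99024190-99024439, minus strand) the topoisomerase that untangles sister chromatids, and Cdk1 (chr10:69352913-69353162, minus strand) the kinase that drives entry into mitosis. Their capitals mark CHR words and, in Cdk1, also 1 E2F word, the first of its 3 words in capitals.
Cdc20: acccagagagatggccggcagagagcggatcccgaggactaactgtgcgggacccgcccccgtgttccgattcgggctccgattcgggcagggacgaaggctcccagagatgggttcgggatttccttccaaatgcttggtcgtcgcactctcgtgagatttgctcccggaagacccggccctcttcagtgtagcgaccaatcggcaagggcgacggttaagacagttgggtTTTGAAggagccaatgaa
Top2a: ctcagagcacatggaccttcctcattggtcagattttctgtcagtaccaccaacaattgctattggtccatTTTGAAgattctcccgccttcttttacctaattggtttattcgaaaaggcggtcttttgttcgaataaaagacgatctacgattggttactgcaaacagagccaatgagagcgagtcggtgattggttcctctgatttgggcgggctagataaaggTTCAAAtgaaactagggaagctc
Cdk1: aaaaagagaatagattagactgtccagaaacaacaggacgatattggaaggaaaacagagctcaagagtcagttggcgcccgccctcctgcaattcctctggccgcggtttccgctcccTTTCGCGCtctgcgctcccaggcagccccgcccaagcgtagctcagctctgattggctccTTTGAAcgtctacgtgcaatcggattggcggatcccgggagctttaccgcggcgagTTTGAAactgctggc

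The E2F words searched were TTTCCCGC, TTTCGCGC, TTTGCCGC and TTTGGCGC, the CHR word was TTTGAA and the third was CCAAT, each on both strands. RefSeq windows were matched for 2 of the 5 G1/S members, 10 of the 11 replication members and 17 of the 21 G2/M members. An E2F word was present in 4 of the 10 replication windows and 1 of the 17 G2/M windows, against 1.86% of all 32851 windows. A CHR word was present in 7 of the 17 G2/M windows and 1 of the 10 replication windows, against 16.0% of all windows. CCAAT was present in 15 of the 17 G2/M windows and 7 of the 10 replication windows, against 33.8% of all windows. The G1/S windows held none of the 3 motifs. A match is a description of these letters and not a mapped binding site.

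Libraries held between 20809135 and 29098454 fragments, with group medians of 28424964 for 189N3, 26947940 for their littermates, 23247959 for Dp(16)1Yey/+ and 22845024 for theirs. The mean log2 level of postmitotic neuron markers was 12.21 to 13.43 and that of hippocampal markers 8.58 to 10.08, and all 7 hippocampal markers were detected. The 85 named genes of the triplicated region (chr16:75540514-97962622) checked the Dp(16)1Yey/+ label. Relative to all named loci their median log2 difference from the Dp(16)1Yey/+ littermates was 0.54, 0.64 and 0.64 in replicates 0, 2 and 3, but 0.13 in the library labelled Dp(16)1Yey/+ replicate 1, while the 10 other libraries lay between -0.04 and 0.20. The dosage of the library labelled Dp(16)1Yey/+ replicate 1 thus went against its label, and the results of that model are therefore also given without it. Among the Dp(16)1Yey/+ littermates, replicates 0 and 1 were nearly alike, as were replicates 2 and 3, though both pairs differed by more than sampling noise. No member lies in the triplicated region. Mcm4 is the single member on chromosome 16 (chr16:15623897-15637400), outside it, and the members spread over 16 chromosomes.

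Gene positions are from GENCODE vM21 on GRCm38, and values sum over the exons of a locus. Dyrk1a (chr16:94570010-94695517) checked the 189N3 label. It measured 4248, 3938 and 5877 normalized fragments in the 189N3 libraries and 2448, 2977 and 2126 in their littermates. Every 189N3 library lay above every littermate (log2 fold change 0.89, SE 0.24, limma p = 0.00219, adjusted p = 1.00; exact permutation p = 0.10, the smallest that 3 against 3 allows). In the Dp(16)1Yey/+ libraries Dyrk1a measured 4781, 2124, 3600 and 3044 against 2488, 2397, 3171 and 3175 in littermates. The lowest of these was the library labelled Dp(16)1Yey/+ replicate 1, and the groups overlapped (0.22, SE 0.23, limma adjusted p = 0.909).

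Per kilobase of exon, members ranged in the Dp(16)1Yey/+ littermates from 20.9 ± 7.51 normalized fragments for Cdt1, the licensing factor, to 1089 ± 80.0 for Pcna, the sliding clamp of the DNA polymerases (SD, n = 4). E2f1 (32.7 ± 2.46), the transcription factor, and Ccne1 (50.3 ± 5.39), cyclin E1, were also low. Ccnd2, cyclin D2 (726 ± 107), Top2a (866 ± 91.3) and Mki67, the proliferation antigen (898 ± 283), lay near the top, and these 3 did not differ beyond their spread. Mcm6 (999 ± 27.6) and Plk1, a mitotic kinase (717 ± 54.2), shared an assembled locus with Dars and Dctn5. The isoforms assigned to Mcm6 made up 32.8 to 51.9% of its locus and those of Plk1 4.9 to 12.7%, so the values of these loci hold many fragments of the neighbours.

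Within each phase the members varied together to different degrees. The median pairwise Pearson correlation of log2 values over the 14 libraries was 0.85 among G2/M members (210 pairs), 0.54 among replication members (55 pairs) and 0.35 among G1/S members (10 pairs). In the Dp(16)1Yey/+ line the G2/M value was 0.90 over 8 libraries and 0.74 over 7, when the library labelled Dp(16)1Yey/+ replicate 1 was left out. The replication value of that line was then 0.35 instead of 0.69, and the G1/S value 0.29 instead of 0.34. In the 189N3 line the G2/M value was 0.73 over 6 libraries. These values describe libraries that share scaling and groups. The genes outside the lists most alike the mean of the 37 members were Dlgap5 (Pearson r 0.984), Dsn1 (0.982) and Tacc3 (0.982), among 14555 candidates over 14 libraries. These values include the library labelled Dp(16)1Yey/+ replicate 1.

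**Figure D1:**
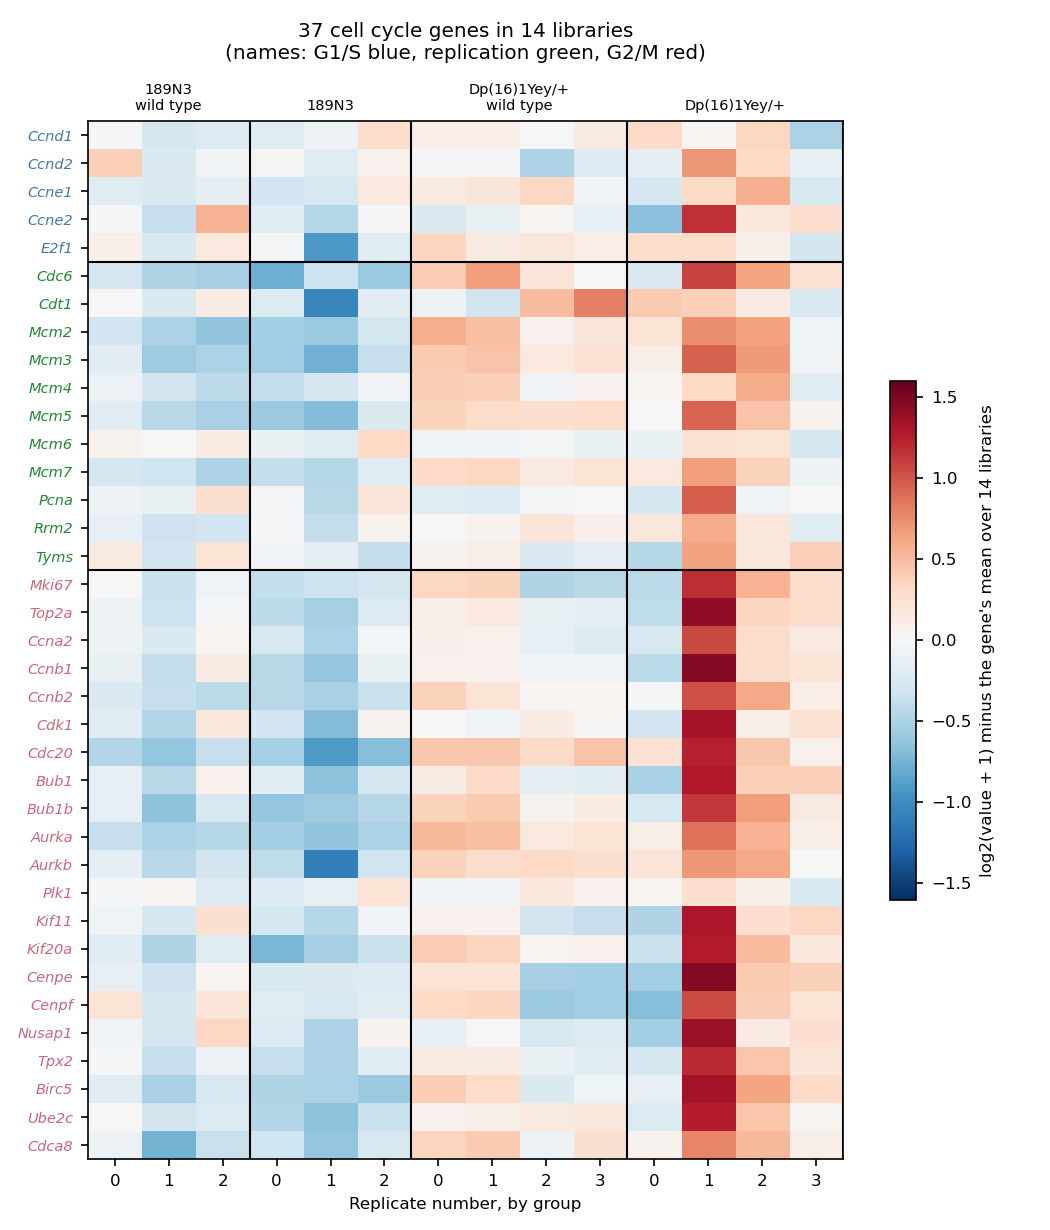
Level of each of the 37 members (rows, names coloured by phase) in each of the 14 libraries (columns, by group and replicate), as log2(value + 1) minus the mean of that gene over all libraries. The G2/M rows share their pattern, and the library labelled Dp(16)1Yey/+ replicate 1 is the highest column for most of them.

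The first comparison asks how these genes stood in embryos with an extra copy of Dyrk1a. In 189N3, 19 of 21 G2/M members and 7 of 11 replication members had lower means than in littermates, and none of the 37 passed a test. The median log2 fold change was -0.21 over the G2/M members (range -0.32 to 0.02), -0.11 over replication, -0.07 over G1/S and -0.17 over all 37, beside -0.04 over all 35899 loci tested. The sign of the G1/S median rested on single libraries, since it was 0.054 when littermate replicate 0 was left out and 0.006 when 189N3 replicate 1 was. The number of members with an unadjusted p under 0.05 was 0 in limma, 0 in edgeR and 0 in DESeq2. The background in limma was 672 loci, or 1.87%. After adjustment limma called 0 loci of the whole table, edgeR 0 and DESeq2 15, none of them a member.

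G1/S members gave small differences of both signs. Ccnd1 (chr7:144929931-144939925), cyclin D1, which opens the path out of G1, measured 596, 649 and 830 in 189N3 and 670, 568 and 586 in littermates. The highest library was 189N3 replicate 2 and the groups overlapped (0.18, SE 0.24, limma adjusted p = 1.00). E2f1 had the smallest p of the phase, with 88.8, 47.3 and 78.9 in 189N3 and 95.3, 75.8 and 100.3 in littermates. Replicate 1 of 189N3 was the lowest, and the groups overlapped (-0.37, SE 0.29, limma adjusted p = 1.00).

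Replication members were close to their littermates. Mcm2 (chr6:88883474-88898780), a helicase subunit, measured 399, 388 and 483 in 189N3 and 471, 411 and 376 in littermates, which overlapped fully (0.01, SE 0.23, limma adjusted p = 1.00). Pcna (chr2:132249162-132253314) measured 2758, 2059 and 3200 against 2655, 2584 and 3341, also overlapping (-0.11, SE 0.24, limma adjusted p = 1.00). Cdt1, which loads the helicase onto origins, had the smallest p of the phase, with 45.7, 25.3 and 46.7 against 52.8, 45.1 and 58.0. Its lowest library was 189N3 replicate 1 and the other 189N3 libraries lay above the lowest littermate (-0.44, SE 0.31, limma adjusted p = 1.00).

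Most G2/M members had slightly lower means. Mki67 (chr7:135689784-135716361) measured 6964, 7225 and 7537 in 189N3 and 9117, 7165 and 8627 in littermates. Top2a (chr11:98992943-99024189) measured 5860, 5395 and 6698 against 7389, 6202 and 7720. Ccnb1 (chr13:100778650-100786570), cyclin B1, the partner of Cdk1, measured 1136, 1003 and 1439 against 1421, 1188 and 1672. In all 3 genes the groups overlapped, with log2 differences of -0.19 (SE 0.21), -0.25 (SE 0.22) and -0.26 (SE 0.24) and limma adjusted p = 1.00.

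Ube2c, the ubiquitin-conjugating enzyme of the anaphase-promoting complex, was the only member whose 189N3 libraries did not overlap their littermates. It measured 244, 214 and 265 in 189N3 and 336, 275 and 291 in littermates, so that each 189N3 library was below the lowest littermate (-0.32, SE 0.24, p = 0.195, limma adjusted p = 1.00; exact permutation p = 0.10). Non-overlapping groups were found at 1786 of the loci tested, or 4.98%, and 1 of 37 members is a share no higher than that. The exons of Ube2c overlap those of Tnnc2 on the other strand.

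Library by library, the median difference of the 21 G2/M members from the littermate mean was -0.16, -0.33 and -0.06 in 189N3 replicates 0, 1 and 2. Of the 21, 9 lay below every littermate in replicate 0, 14 in replicate 1 and 3 in replicate 2. No share over all loci is given beside these counts, and the libraries also differed as wholes. Measured from the Dp(16)1Yey/+ littermates, the median named locus stood at -0.08, -0.19 and 0.30 in 189N3 replicates 0, 1 and 2. In the 189N3 littermates it stood at -0.05, 0.0 and -0.12. Under median-ratio, TMM and quantile scaling 19, 19 and 20 of the 21 G2/M members had lower means. Other lists moved with the model. Replication-dependent histones had lower means for 36 of 36 tested (median -0.68, 13 with limma p under 0.05, beside -0.04 and 1.87% over all loci). Their messages rise in S phase and mostly lack poly(A) tails. The labels give polyA RNA while the kit named is for total RNA, and how far such messages were captured is not known. Erythroid markers were lower in 8 of 8 (median -1.32), skin markers in 5 of 5 (-2.0) and postmitotic neuron markers higher in 8 of 8 (0.21), none past adjustment in limma. Connective tissue markers were lower in 6 of 6 (-0.82) and muscle markers in 5 of 5 (-0.78). Radial glia markers were lower in 7 of 10 (-0.105) and intermediate progenitor markers in 4 of 5 (-0.20). DESeq2 called 4 erythroid, 2 skin, 2 connective tissue and 0 muscle markers. Summed erythroid levels were 13943 to 22259 normalized fragments in 189N3 and 34027 to 54487 in littermates, and summed skin levels 191 to 267 and 289 to 1995, and Krt5, Krt14 and Krt15 were above 0 in all 6 libraries. The part of these cells in the values of the members was not tested.

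**Figure D2:**
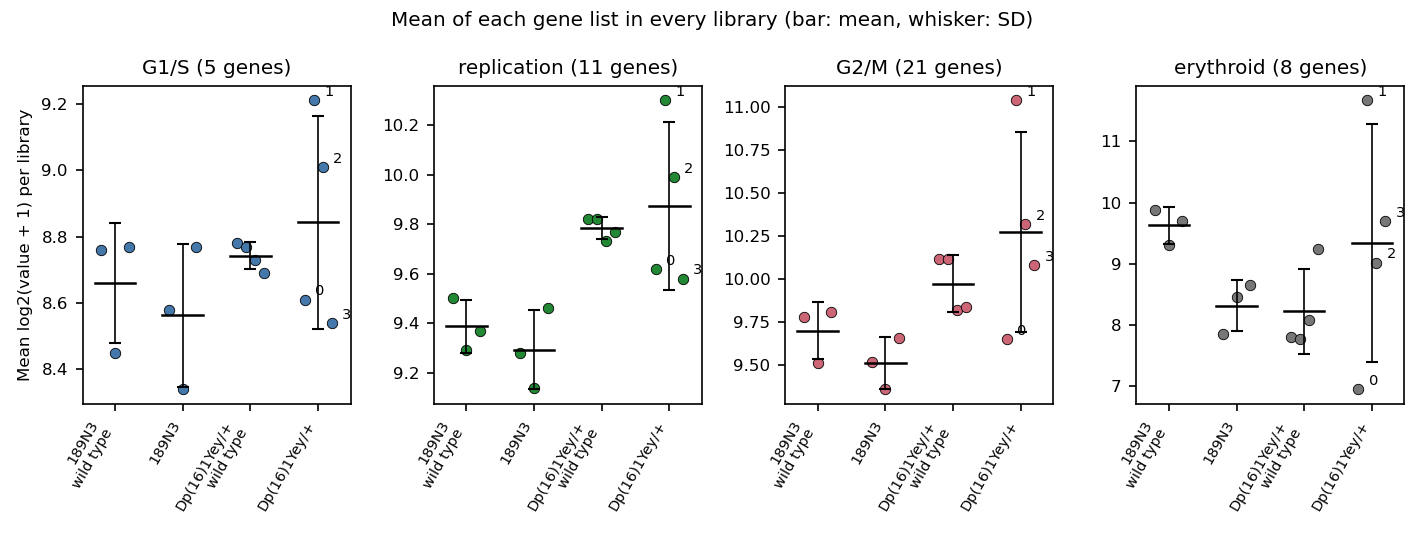
Mean log2(value + 1) of the G1/S, replication and G2/M members and of 8 erythroid markers in each library, 1 panel per list, with 1 point per library, the group mean as a bar and the SD as a whisker. The library labelled Dp(16)1Yey/+ replicate 1 stands at 11.04 in the G2/M panel, above all other libraries (9.36 to 10.32).

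The remaining members gave the same picture of small differences. In 189N3 the E-type cyclin genes Ccne1 and Ccne2, which open S phase, had log2 fold changes of 0.06 (SE 0.25) and -0.27 (SE 0.28). Cdc6, the loader of the helicase, was at -0.14 (SE 0.25), and the helicase genes Mcm3, Mcm4, Mcm5 and Mcm7 were between -0.15 and 0.03. The nucleotide synthesis genes Rrm2 and Tyms were at 0.14 (SE 0.23) and -0.21 (SE 0.24). The spindle checkpoint kinase genes Bub1 and Bub1b were at -0.20 (SE 0.25) and -0.21 (SE 0.24), and Aurkb, of the chromosomal passenger complex, was at -0.31 (SE 0.27). Its partners in that complex, Birc5 and Cdca8, were at -0.21 (SE 0.24) and 0.01 (SE 0.26). All of these had limma adjusted p = 1.00.

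The second comparison asks how the genes stood in embryos with the larger duplication. In Dp(16)1Yey/+, all 21 G2/M members and 9 of 11 replication members had higher means than in littermates, and again none of the 37 passed a test. The median log2 fold change was 0.35 over the G2/M members (range 0.01 to 0.59), 0.08 over replication, -0.05 over G1/S and 0.18 over all 37, beside 0.03 over all 36024 loci. The number of members with an unadjusted p under 0.05 was 0 in limma, 0 in edgeR and 0 in DESeq2, with a limma background of 1273 loci, or 3.53%. No member had groups that did not overlap, against 884 loci, or 2.45%. After adjustment limma called 0 loci of the table, edgeR 0 and DESeq2 8, none of them a member.

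When the library labelled Dp(16)1Yey/+ replicate 1 was left out, the G2/M median was 0.05, with 12 members higher and 9 lower. The median of all 37 was then -0.01 (17 higher, 20 lower), that of replication -0.06 (3 higher, 8 lower) and that of G1/S -0.042. The G1/S median was 0.052 when Dp(16)1Yey/+ replicate 0 was left out, 0.135 when replicate 3 was and 0.161 with a GC trend removed, so its sign was not stable. In that library 21 of 21 G2/M members lay above every littermate, with a median 2.25-fold above the littermate mean. In replicate 2 the number was 18 of 21 (1.27-fold) and in replicate 3 it was 9 of 21 (1.14-fold), whereas in replicate 0 it was 0, and 17 lay below every littermate (0.79-fold). No share over all loci is given beside these counts, so they are not a result about the members. Whole libraries were shifted too. The median log2 difference of all named loci from these littermates was 0.15, -0.03, -0.06 and -0.24 in replicates 0 to 3. In the G2/M members the 4 libraries of the model did not move one way.

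The same library was set apart by phase. It exceeded its littermates in 21 of 21 G2/M members, in 9 of 11 replication members (median 1.42-fold) and in 2 of 5 G1/S members (median 1.11-fold). The share over all loci is not given for these counts, and the median named locus of this library stood at -0.03. The mean log2 level of G2/M members minus that of G1/S members was 1.83 there, between 1.04 and 1.54 in the other Dp(16)1Yey/+ libraries and between 1.09 and 1.35 in their littermates. It also had the highest erythroid mean of all 14 libraries, 11.67 on the log2 scale, compared with 6.95 to 9.70 in the other Dp(16)1Yey/+ libraries and 7.77 to 9.25 in littermates. Summed erythroid levels were 6162 to 55894 normalized fragments in Dp(16)1Yey/+ and 4733 to 17426 in littermates. Its muscle and connective tissue means were 7.20 and 8.53, against 3.13 to 3.90 and 5.88 to 6.98 in littermates. The wild-type littermates of 189N3 had erythroid means of 9.30 to 9.88 with G2/M means of 9.51 to 9.81. All 7 hippocampal markers had lower means in the model (median -0.45, and -0.18 without replicate 1), none with an unadjusted p under 0.05 in limma. Radial glia markers were lower in 7 of 10 (median -0.17), and intermediate progenitor markers were higher in 4 of 5 (median 0.01). The part of other cell types in these values was not tested.

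Among G1/S members, Ccnd1 measured 845, 698, 861 and 483 in Dp(16)1Yey/+ replicates 0 to 3 and 737, 735, 684 and 753 in littermates. The model libraries lay on both sides of the littermates (-0.05, SE 0.20, limma adjusted p = 0.969). Ccnd2, a D-type cyclin of neural progenitors, had the smallest p of the phase, with 6898, 12545, 9628 and 7054 against 7619, 7545, 5461 and 6694. Its high libraries were replicates 1 and 2 (0.37, SE 0.21, limma adjusted p = 0.909), and without replicate 1 the difference was 0.20 (SE 0.18).

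Among replication members, Mcm2 measured 682, 981, 917 and 560 in the model and 875, 814, 611 and 670 in littermates, with full overlap (0.06, SE 0.21, limma adjusted p = 0.963). Pcna had the smallest p of the phase, with 2333, 5495, 2702 and 2832 against 2456, 2440, 2772 and 2789. Replicate 1 alone stood high, and the other model libraries fell within or near the littermates (0.27, SE 0.24, limma adjusted p = 0.909; 0.00, SE 0.14, without replicate 1).

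Among G2/M members, Mki67 measured 6771, 20480, 13343 and 11081 in the model and 11380, 11620, 6480 and 6676 in littermates. Top2a measured 5874, 20909, 9920 and 9547 against 8318, 8684, 7175 and 7031. Ccnb1 measured 1148, 4243, 1883 and 1801 against 1614, 1616, 1491 and 1477. In each gene replicate 1 was the highest library, replicate 2 lay above every littermate, and replicate 0 lay below or near the lowest littermates. The log2 differences were 0.46 (SE 0.32), 0.42 (SE 0.31) and 0.38 (SE 0.32), each with limma adjusted p = 0.909, and 0.20, 0.08 and 0.02 without replicate 1.

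Cenpe, the kinetochore motor that aligns chromosomes, had the smallest p of the phase. It measured 942, 3808, 1847 and 1804 in the model and 1610, 1609, 953 and 950 in littermates, and replicate 0 was below every littermate (0.59, SE 0.36, limma adjusted p = 0.909; 0.24 without replicate 1). The littermates themselves fell into 2 levels. The means of replicates 0 and 1 exceeded those of replicates 2 and 3 in 18 of 21 G2/M members, by a median log2 difference of 0.28 and up to 0.90. The corresponding medians were 0.14 for replication and 0.04 for G1/S members. The pairs also differed as whole libraries, and the median named locus went the other way. It stood at -0.14 and -0.16 from the other littermates in replicates 0 and 1, and at 0.14 and 0.17 in replicates 2 and 3.

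In the other G2/M members too, replicate 1 was the highest of the 4 model libraries. Kif11 measured 1508, 5182, 2534 and 2656 in the model and 2215, 2219, 1715 and 1633 in littermates (0.48, SE 0.31, limma adjusted p = 0.909). Nusap1, a microtubule-bundling protein, measured 751, 2849, 1198 and 1312 against 996, 1101, 919 and 936 (0.46, SE 0.32, limma adjusted p = 0.909). Cyclin genes Ccna2 and Ccnb2 had fold changes of 0.35 (SE 0.24) and 0.27 (SE 0.23) on the log2 scale, and the spindle assembly factor gene Tpx2 0.39 (SE 0.27). Without replicate 1 the values of Kif11, Nusap1, Ccna2, Ccnb2 and Tpx2 were 0.17 (SE 0.23), 0.10 (SE 0.21), 0.11 (SE 0.18), 0.06 (SE 0.20) and 0.12 (SE 0.20). The smallest G2/M values were those of Plk1 (0.01, SE 0.16), on its shared locus, Aurka (0.06, SE 0.21), Aurkb (0.07, SE 0.19) and Cdc20 (0.09, SE 0.23), and without replicate 1 these 4 were at -0.06, -0.10, -0.04 and -0.16. The helicase genes Mcm3, Mcm4, Mcm5 and Mcm7 were between -0.01 and 0.10, and Tyms, thymidylate synthase, was at 0.25 (SE 0.22). Without replicate 1 the helicase genes were between -0.13 and -0.05 and Tyms was at 0.09 (SE 0.21).

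**Figure D3:**
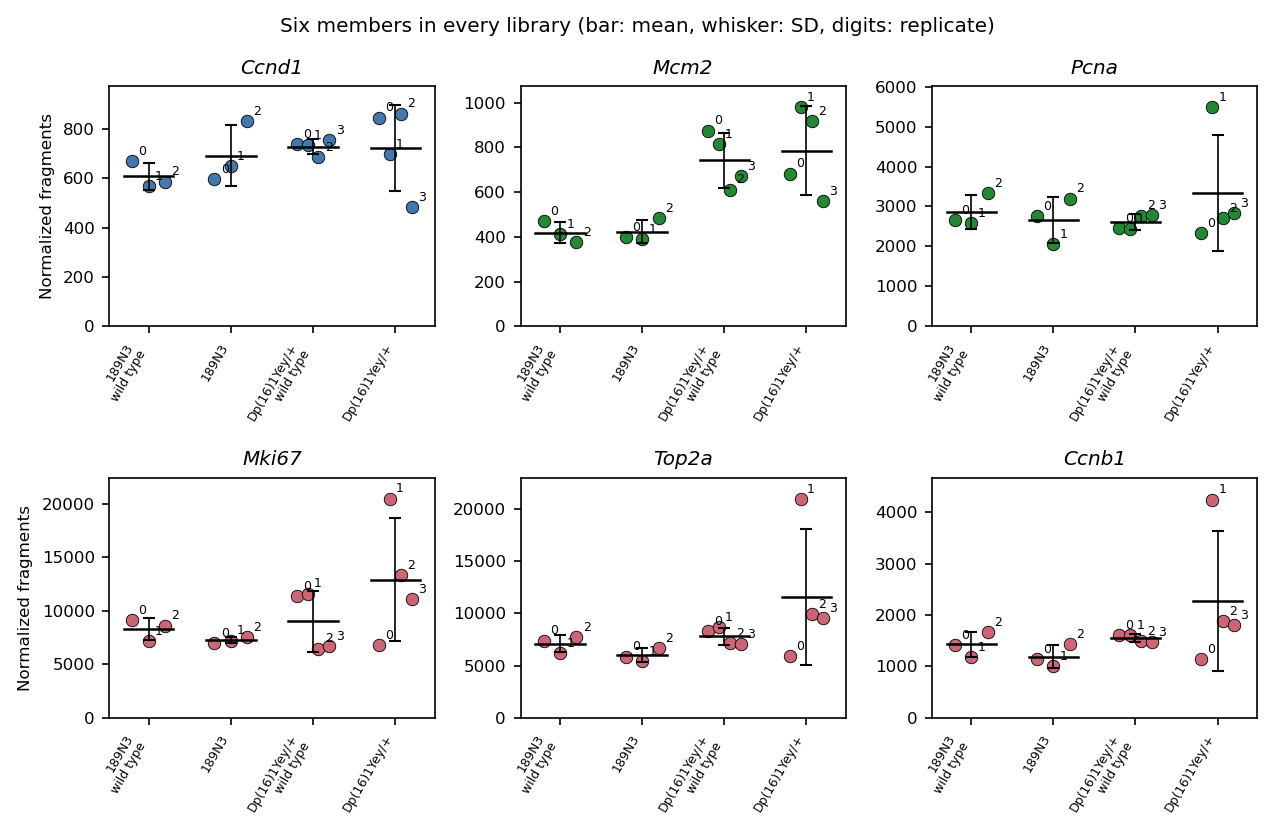
Normalized fragments of Ccnd1, Mcm2, Pcna, Mki67, Top2a and Ccnb1 in every library, with the replicate number at each point, the group mean as a bar and the SD as a whisker. The library labelled Dp(16)1Yey/+ replicate 1 is far above the others for Top2a (20909) and Ccnb1 (4243) but not for Ccnd1 (698).

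**Figure D4:**
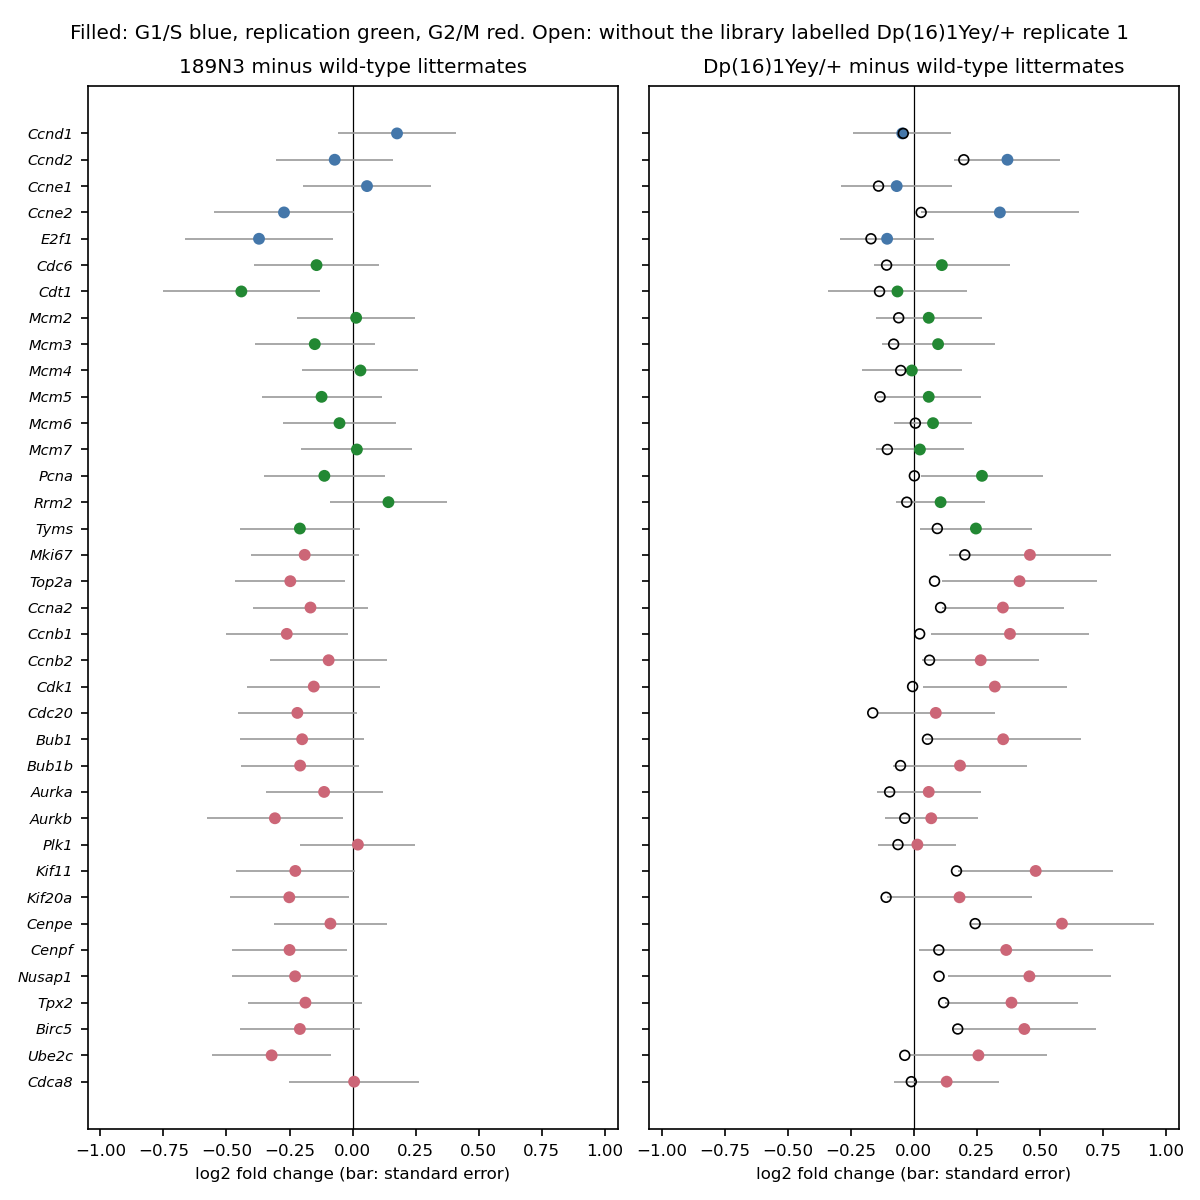
Log2 fold change of each member in each model against its littermates, with the standard error as a bar and the phase as colour; open symbols leave out the library labelled Dp(16)1Yey/+ replicate 1. The filled G2/M symbols lie above 0 in the Dp(16)1Yey/+ panel (median 0.35), and the open ones scatter around 0 (median 0.05).

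Cell cycle genes outside the 37 were counted from lists of their own. In Dp(16)1Yey/+ the other mitosis genes were higher in 27 of 29 (median 0.29), with Spc25, a kinetochore subunit, at 0.61 (SE 0.33). The other replication genes were higher in 21 of 25 (0.20), with Pola1, the catalytic subunit of polymerase alpha, at 0.40 (SE 0.25). Without replicate 1 these counts were 18 of 29 and 14 of 25, with medians of 0.02 and 0.01, and Spc25 and Pola1 were at 0.23 (SE 0.20) and 0.14 (SE 0.17). None of these genes passed adjustment in limma (smallest adjusted p = 0.909).

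Of 15 genes in the other G1/S list, 1 had Dp(16)1Yey/+ libraries that did not overlap their littermates, beside 2.45% of all loci. This was Cdk6, a kinase that partners D-type cyclins. It measured 249 ± 32.9 (SD, n = 4; 201 to 276) in the model and 159 ± 19.5 (132 to 178) in littermates (0.64, SE 0.18, limma adjusted p = 0.909; 0.63, SE 0.19, without replicate 1). Cdkn1a, the p21 inhibitor of cyclin-dependent kinases, measured 84.1, 97.6, 98.0 and 66.4 against 97.9, 89.1, 142 and 159 (-0.47, SE 0.23, limma adjusted p = 0.909; -0.53, SE 0.25, without replicate 1). Its highest values were those of littermate replicates 2 and 3. Lin9, a MuvB subunit, measured 0.28 on the log2 fold change scale (SE 0.20), and 0.09 (SE 0.15) without replicate 1.

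Cell cycle genes inside the triplicated region, Dyrk1a among them, form a list of 4. All 4 had higher means in Dp(16)1Yey/+ (median 0.56, and 0.63 without replicate 1). Of the 4, 3 had an unadjusted limma p under 0.05, beside 3.53% of all loci. Groups did not overlap for 2 of the 4, beside 2.45% of all loci. Mis18a, which helps load centromeric histone, measured 300, 391, 280 and 309 in the model and 167, 165, 218 and 227 in littermates, without overlap (0.72, SE 0.18, limma adjusted p = 0.909). Chaf1b, a chromatin assembly subunit, measured 532, 437, 549 and 427 against 295, 313, 336 and 341, again without overlap (0.59, SE 0.16, limma adjusted p = 0.909). For both genes the exact permutation p was 0.0286, the smallest that 4 against 4 allows. When the library labelled Dp(16)1Yey/+ replicate 1 was left out, Mis18a was at 0.62 (SE 0.18) and Chaf1b at 0.64 (SE 0.16). The exact permutation p was then 0.0571 for both, the smallest that 3 against 4 allows. These tests take the 4 littermates as separate, although replicates 0 and 1, and replicates 2 and 3, were nearly alike. They may thus overstate the evidence.

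In 189N3 the members of these outer lists with the smallest p were E2f2, an activator E2F, Tk1, thymidine kinase, and Pttg1, securin. Pttg1 measured 139 ± 18.5 (118 to 155) in 189N3 and 198 ± 17.5 (183 to 218) in littermates (SD, n = 3), without overlap (-0.52, SE 0.24, limma adjusted p = 1.00). Tk1 measured 93.6 ± 17.7 against 122 ± 7.56, also without overlap (-0.39, SE 0.26, limma adjusted p = 1.00). Groups did not overlap for 2 of 29 other mitosis and 1 of 25 other replication genes, beside 4.98% of all loci. E2f2 measured 48.9 to 67.5 in 189N3 and 63.2 to 95.3 in littermates, which overlapped (-0.56, SE 0.28, limma adjusted p = 1.00). The other mitosis genes had lower means in 24 of 29 (median -0.15) and the other replication genes in 16 of 25 (-0.09). Cdkn2c, a CDK4/6 inhibitor (-0.17, SE 0.26), and Lin9 (-0.20, SE 0.25) had the smallest p among the CDK inhibitors and MuvB genes.

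Whether the models differed was read from the interaction term of a fit to the 4 groups together. The Dp(16)1Yey/+ effect minus the 189N3 effect had a median of 0.55 over G2/M members (20 of 21 above 0), 0.18 over replication, 0.27 over G1/S and 0.38 over the 37, beside 0.08 over all 36045 loci. None of the 37 had an unadjusted p under 0.05 in limma (957 loci, or 2.66%, did), edgeR or DESeq2, and 0 loci were called after adjustment by limma, edgeR or DESeq2. The largest value was that of Kif11, a mitotic kinesin (0.71, SE 0.42, limma adjusted p = 0.922). When the library labelled Dp(16)1Yey/+ replicate 1 was left out, the G2/M median was 0.27, that of replication 0.035, that of G1/S 0.20 and that of the 37 was 0.16.

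The wild-type littermates of the lines were also compared with each other, as the control levels of the members. Of the 37, 28 were higher in the Dp(16)1Yey/+ littermates and 9 lower, with a median of 0.46 over replication, 0.20 over G1/S, 0.18 over G2/M and 0.26 over all, beside 0.07 over all 36047 loci. Limma called 7 of 37 at an adjusted p under 0.05, all higher, against 1351 loci, or 3.75% (825 higher, or 2.29%). EdgeR called 6, against 1085 loci, or 3.01%, and DESeq2 10, against 3262 loci, or 9.05%. An unadjusted p under 0.05 was found for 17 members, beside 26.0% of all loci, and groups that did not overlap for 18, beside 25.5%.

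The 7 were 4 helicase genes, Cdc20 and the Aurora kinase genes. Mcm2 measured 875, 814, 611 and 670 in the Dp(16)1Yey/+ littermates and 471, 411 and 376 in the 189N3 littermates (0.82, SE 0.16, limma adjusted p = 0.0380). Mcm5 measured 1010, 966, 943 and 966 against 703, 580 and 550 (0.68, SE 0.13, limma adjusted p = 0.0353). Cdc20 measured 558, 557, 512 and 565 against 298, 268 and 319 (0.89, SE 0.13, limma adjusted p = 0.0244). In each of these genes every library of one line lay above every library of the other. For Mcm5 and Cdc20 the exact permutation p was 0.0571, the smallest that 3 against 4 allows. That test too took the nearly alike Dp(16)1Yey/+ littermates as separate libraries.

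Mcm3 measured 1003, 1030, 839 and 882 in the Dp(16)1Yey/+ littermates against 668, 505 and 527 (0.73, SE 0.14, limma adjusted p = 0.0381). Mcm7 measured 2384, 2424, 2128 and 2237 against 1582, 1544 and 1369 (0.62, SE 0.11, limma adjusted p = 0.0346). The Aurora kinase genes Aurka (0.79, SE 0.14) and Aurkb (0.60, SE 0.13) were the others, with limma adjusted p = 0.0336 and 0.0446. Mcm7 overlaps Ap4m1 and Cops6 on the other strand, and Cdc20 overlaps Elovl1. Mcm6 was the 1 member that was lower without overlap (-0.12), on the locus shared with Dars, whereas its own isoforms gave 0.31 (SE 0.12, limma adjusted p = 0.131). Plk1 gave 0.09 on its shared locus and 0.89 (SE 0.16, limma adjusted p = 0.0323) from its own isoforms. Outside the 37, Mybl2, a MuvB partner (1.10), Uhrf1, a maintenance methylation factor (0.85), E2f7, a repressor E2F (0.86), and Incenp, a partner of Aurora B (0.84), were also called higher by limma. By list the calls were 2 of 15 other G1/S, 1 of 7 MuvB, 5 of 25 other replication and 4 of 29 other mitosis genes. All of these were higher, and 0 of 5 CDK inhibitors were called, beside 3.75% of all loci.

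Nearly all of these calls were lost whichever library was left out, while the differences stayed close. Leaving out any 1 library left 0 or 1 of the 37 called, with 13 to 78 loci called, and the 1 was found without Dp(16)1Yey/+ littermate replicate 2. Over these fits Mcm2 was at 0.73 to 0.90, Mcm5 at 0.60 to 0.78 and Cdc20 at 0.83 to 0.95. Averaging each nearly alike pair left 0 members and 28 loci, although the medians by phase stayed at 0.20, 0.46 and 0.18. Line, litter, age and any batch cannot be told apart in this comparison. Some marker lists moved with it: 5 of 5 intermediate progenitor markers were higher (median 0.80, 3 called), Eomes among them (0.87, limma adjusted p = 0.0383). Radial glia markers were mixed, with 7 of 10 higher (median 0.41, range -0.79 to 0.81, 3 called, all higher). Of the postmitotic neuron markers, 6 of 8 were lower (median -0.20, range -0.81 to 0.69). The 1 neuron marker called was Snap25, a synaptic vesicle fusion gene (-0.81, limma adjusted p = 0.0307). Erythroid markers had a median of -2.21, with 6 of 8 lower and 2 higher (range -2.88 to 2.28). Of the 8, 6 were called, 1 of those higher. Muscle and skin markers were lower in 5 of 5 each, with medians of -2.57 and -2.70, and 4 and 3 of them were called. Connective tissue markers were lower in 6 of 6 (median -1.91, 3 called). Over all loci 3.75% were called.

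The trend with GC content differed between the wild-type littermates of the lines, and most Dp(16)1Yey/+ libraries also lay apart from their own littermates. For this, 12378 loci were split into 3 equal classes at 47.0% and 53.3% GC. The high-GC minus low-GC log2 difference was between 0.12 and 0.56 in the Dp(16)1Yey/+ littermates and between -0.45 and -0.15 in the 189N3 littermates. It was 0.48, -0.23, -0.05 and -0.11 in Dp(16)1Yey/+ replicates 0 to 3, and between -0.40 and -0.09 in 189N3. Across the 37 members the wild-type difference correlated with GC content at Pearson r 0.59 (Spearman 0.65), the Dp(16)1Yey/+ fold change at -0.74 (-0.67 without replicate 1) and the 189N3 fold change at 0.03, each over 37 genes that share libraries. When a GC trend was removed from each library, a setting added after the data were seen, 2 of the 37 were called between the wild types. These were Mcm5 (0.52, limma adjusted p = 0.0405) and Rrm2, the small subunit of ribonucleotide reductase (0.48, limma adjusted p = 0.0283), of which Mcm5 was among the 7. Under that setting the G2/M median was -0.23 in 189N3 with 21 of 21 lower, 0.33 in Dp(16)1Yey/+ with 21 of 21 higher, and 0.10, with 20 of 21 higher, when the library labelled Dp(16)1Yey/+ replicate 1 was left out.

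**Figure D5:**
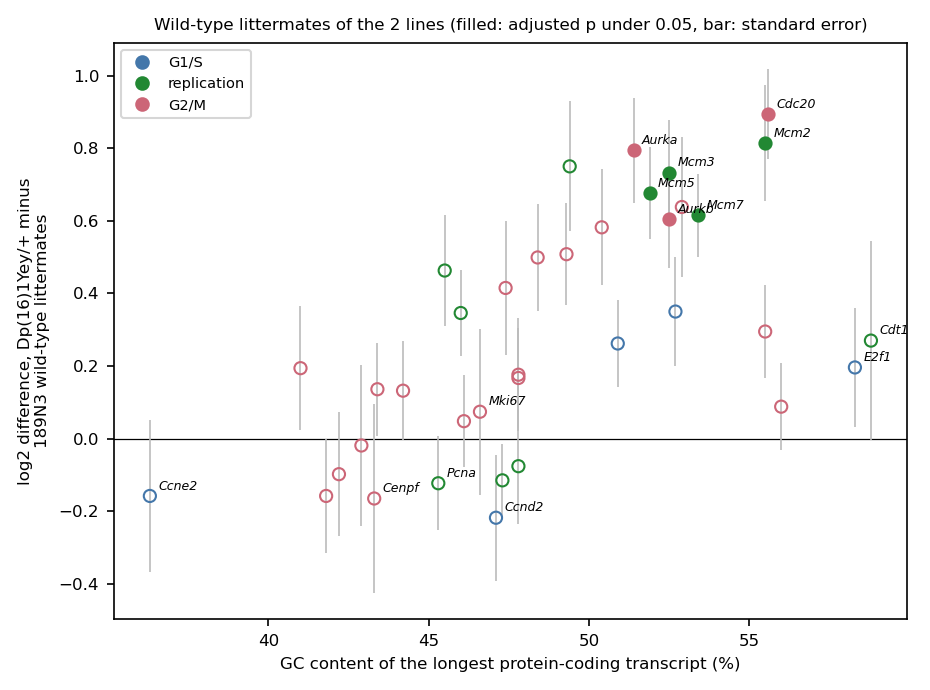
Log2 difference of each member between the wild-type littermates of the lines (Dp(16)1Yey/+ minus 189N3, with the standard error as a bar) against the GC content of its longest protein-coding transcript; filled symbols have an adjusted p under 0.05 in limma. The filled symbols include Cdc20 (0.89) and Mcm2 (0.82), and members of higher GC content lie higher (Pearson r 0.59 over 37 genes).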

How the data were processed

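RNA-seq of embryonic hippocampus gave 14 libraries, grouped by their labels. Per the study's methods, the authors aligned reads with TopHat and Bowtie to mm10 and assembled, merged and quantified transcripts with Cufflinks, with corrections for biased fragments and multi-mapping reads. The labels give polyA RNA, whereas the kit named is a stranded one for total RNA; which applies was not settled, and whether counting used strand is not given in the sources used here. The deposited signal values are fragments per locus, or estimated fragments per isoform, divided by 1 size factor per library. No per-sample column was left unused (0).

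Loci were matched to gene symbols where the isoforms of the deposited map sum to the locus in all 14 libraries, which matched 49073 loci and named 17498. Loci averaging 10 or more were fitted together as log2(value + 1) in R 4.3.3 with limma 3.58.1, using the trended empirical Bayes variance and group as the only term, and p-values were Benjamini-Hochberg adjusted at 0.05. Fold changes are on this scale and understate those of low genes. Single genes were tested by exact two-sided permutation (SciPy 1.17.1). Whole fragments were recovered and tested in edgeR 4.0.16 and DESeq2 1.42.0 as alternatives. Other scalings, filters, pseudocounts, a replicate block and leaving out each library were tried. The fit was tested on simulated data. Coordinates come from GENCODE vM21 (GRCm38, the assembly of mm10) and promoters from RefSeq (GRCm38.p6).

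The members and lists were chosen with earlier results of these data known. Values in every sample were given for Dyrk1a, Ccnd1, Mcm2, Pcna, Mki67, Top2a and Ccnb1, for the member with the smallest limma p of each phase in each model, and for members whose groups did not overlap in a model. Of each outer cell cycle list the gene with the smallest p in each model was named. Members named between the wild types, and Kif11, were chosen after their values were seen. Depth limits the precision of low genes such as Cdt1.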

Additional observations from a re-analysis of the deposited data

Results flagged for a closer look

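Of 74 combinations of a member with a group of 4 libraries, 2 held a library far from the others, whereas chance alone flags about 1 in 20 groups. Pcna was highest in the library labelled Dp(16)1Yey/+ replicate 1, at 5495 normalized fragments, with a gap to the next library of 0.842 of the range of the group. Cdc20 was lowest in Dp(16)1Yey/+ littermate replicate 2, at 512 normalized fragments, with a gap of 0.848 of the range.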

How the results depend on the processing

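Across 48 results and 1170 combinations with an alternative, 1028 stayed on their side of the threshold or within the spread, 45 values moved, 87 calls were lost and 10 signs turned; the cause was not tested except where fewer libraries or loci were fitted. In 189N3 the number of loci called was 0, and 3 with median-ratio scaling, 3 with TMM, 15 with DESeq2, 2 over loci with a GC value and 0 to 28 without each library. Removing the GC trend turned Mcm2 in 189N3 to -0.045 and Ccnd1 in Dp(16)1Yey/+ to 0.063. DESeq2 called 8 loci in Dp(16)1Yey/+. Between the wild types, 1351 loci and 7 members became 614 loci with no filter, 837 with TMM, 3262 with DESeq2, 38 loci and 0 members in 1 fit of 4 groups, 85 and 0 with no trend, 28 and 0 with pairs averaged, and 2086 and 11 over named loci. Over loci with a GC value 11 members were called, and 2 with the GC trend removed, when the G2/M median was 0.36. The G1/S median was 0.052 with a mean of at least 100.

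Leaving out 1 library gave, in 189N3, a replication median of -0.156 to 0.047, Pcna at -0.253 to 0.064 and Mcm2 at -0.084 to 0.101. In Dp(16)1Yey/+ it gave 0 to 3 loci called, Mcm2 at -0.060 to 0.210 and Ccnd1 at -0.143 to 0.135. The difference between models gave a G1/S median of -0.005 to 0.442 and 0 to 1 loci called. The wild types gave 13 to 78 loci, 0 to 1 members and a replication median of 0.39 to 0.55.

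Libraries shared only a replicate number. Deviations of same-numbered libraries correlated between -0.32 and -0.03 in the 189N3 line and between -0.45 and -0.07 in the Dp(16)1Yey/+ line. With the replicate block 72 loci were called in 189N3 and 0 in Dp(16)1Yey/+, and 75 loci and 0 members between the wild types. Each member had 1 row, so summing rows gave no other value.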
